A study of Mus musculus with 12 samples.

Results

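Whole hearts of adult male C57BL/6N mice, a wild-type inbred strain, were profiled by RNA sequencing after a sham operation, 1 day after acute myocardial infarction (AMI) and 7 days after AMI, with 4 hearts from different mice in each group. AMI was made by permanent ligation of the left coronary artery, and no group carried a transgene, deletion or drug. The sources used here do not state when sham hearts were collected. From the 53801 genes in the tables, 10 genes of iron and heme handling were taken by symbol: *Hmox1*, *Blvrb*, *Alas1*, *Fth1*, *Ftl1*, *Tfrc*, *Slc11a2*, *Slc40a1*, *Cp* and *Hamp*. The comparison asked how transcripts for heme breakdown, iron storage, iron entry and iron exit stood in the heart early and later after infarction. Each library was a whole heart, so fewer cells of a type and less RNA per cell cannot be told apart.

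Heart muscle holds much iron in myoglobin heme and in the iron-sulfur proteins of its mitochondria. Heme set free from dying muscle or red cells is opened by heme oxygenase, which yields iron, carbon monoxide and biliverdin, and biliverdin is then reduced to bilirubin. Free iron is stored in ferritin shells built of heavy and light chains, enters cells through the transferrin receptor and divalent metal transporter, and leaves through ferroportin, which the peptide hepcidin removes from the membrane. Several of these transcripts carry an iron-responsive element, a hairpin bound by iron regulatory proteins when iron is scarce. A hairpin in the 5′ UTR then holds back translation, and hairpins in the 3′ UTR protect the transcript from decay.

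The hairpins are shown for the genes that held a match to the pattern below. Among these, they separate genes whose protein output can be set at translation from *Tfrc*, whose transcript level can be set by iron itself. They were located in the GENCODE M21 transcripts on GRCm38 as an unpaired C, 5 bases, the loop CAGTGN and 5 bases that pair with the first 5, with G-T pairs allowed, on the sense strand. Matches were found in 4 of the 10 genes, in the 5′ UTR of *Fth1*, *Ftl1* and *Slc40a1* and at 4 places in the 3′ UTR of *Tfrc*. Among 21866 protein-coding genes, 0.142% held a match in a 5′ UTR and 0.59% in a 3′ UTR. The sequences below read 5′ to 3′ as DNA, with the loop in capitals. They lie at chr19:9982732-9982761 on the plus strand for *Fth1*, chr7:45459778-45459807 on the minus strand for *Ftl1*, chr1:45925464-45925493 on the minus strand for *Slc40a1*, and on the plus strand of chromosome 16 for *Tfrc*, from chr16:32631219-32631248 to chr16:32631710-32631739.
Fth1: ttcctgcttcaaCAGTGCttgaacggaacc
Ftl1: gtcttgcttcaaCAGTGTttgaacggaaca
Slc40a1: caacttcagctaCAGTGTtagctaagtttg
Tfrc repeat a: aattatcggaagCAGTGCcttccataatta
Tfrc repeat b: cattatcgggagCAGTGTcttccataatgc
Tfrc repeat c: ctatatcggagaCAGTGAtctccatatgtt
Tfrc repeat d: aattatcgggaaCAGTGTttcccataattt
A match is a description of the letters and was not tested as a binding site. The pattern allows no bulge within the 5 pairs, so genes without a match, such as *Slc11a2*, may still hold a hairpin of another form.

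Libraries held 23204551 to 32166517 counts, so 3 counts, taken as the floor of detection, were worth 0.0933 to 0.129 CPM (counts scaled to the library total). The floor accounts for counting error alone. Levels are given as CPM after TMM normalization, which scales libraries so that most genes stay level, and the TMM factors were 0.781 to 0.917 in sham, 1.01 to 1.06 in day 1 AMI and 1.10 to 1.17 in day 7 AMI. The groups therefore differed in scale: on library sizes alone the median gene moved up by 0.27 at day 1 and by 0.40 at day 7 against sham, on the log2 scale, relative to the TMM-normalized fit. With TPM, in limma on log2(TPM + 1), the shifts were 0.29 and 0.45. Mitochondrial transcripts took 17.9% to 27.4% of counts in sham, 12.1% to 15.9% in day 1 AMI and 13.2% to 19.2% in day 7 AMI, so every sham heart lay above every day 1 heart, and the part of this share in the levels below was not tested. All 9 cardiomyocyte markers listed were present in each group, with a summed level of 75850 to 91298 CPM in sham, 49301 to 61130 at day 1 and 42931 to 49633 at day 7. The summed level of 8 erythroid markers was 480 to 4296 CPM in sham, with sham heart 2 far above the other sham hearts, 411 to 631 in day 1 AMI and 234 to 929 in day 7 AMI.

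The test was edgeR's quasi-likelihood F test, fitted to all 12 libraries together, and p-values were adjusted by Benjamini-Hochberg (FDR) over 15306 genes. A gene is said to have risen or fallen when its FDR was below 0.05, and differentially expressed genes (DEGs) also had a fold change (FC) of 2 or greater. At day 1, *Hmox1* and *Ftl1* were higher and *Slc40a1* was lower than in sham, which made 3 of the 10 genes DEGs, where 10.8% of all genes tested were DEGs (7.79% higher and 2.98% lower). At day 7 the same 3 genes were DEGs in the same directions, and 21.2% of all genes tested were (15.3% higher and 5.88% lower). The comparisons with sham share the 4 sham hearts. Between day 7 and day 1, 2 of the 10 genes were DEGs, *Hmox1* and *Hamp*, both lower at day 7, where 11.2% of all genes were DEGs (8.55% higher and 2.69% lower). On FDR alone, 6, 6 and 4 of the 10 genes changed, beside 41.8%, 59.3% and 47.0% of all genes. Hearts of the groups did not overlap for 5, 5 and 2 of the 10, beside 36.7%, 53.0% and 44.5%. On library sizes alone *Slc40a1* lost its call, and the split was 2 higher and none lower at day 1 and 3 higher and none lower at day 7, *Tfrc* joining *Hmox1* and *Ftl1*. In that fit 1764 of all 15306 genes were DEGs with a higher level and 217 with a lower at day 1. At day 7 the numbers were 3633 and 318.

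**Figure D1:**
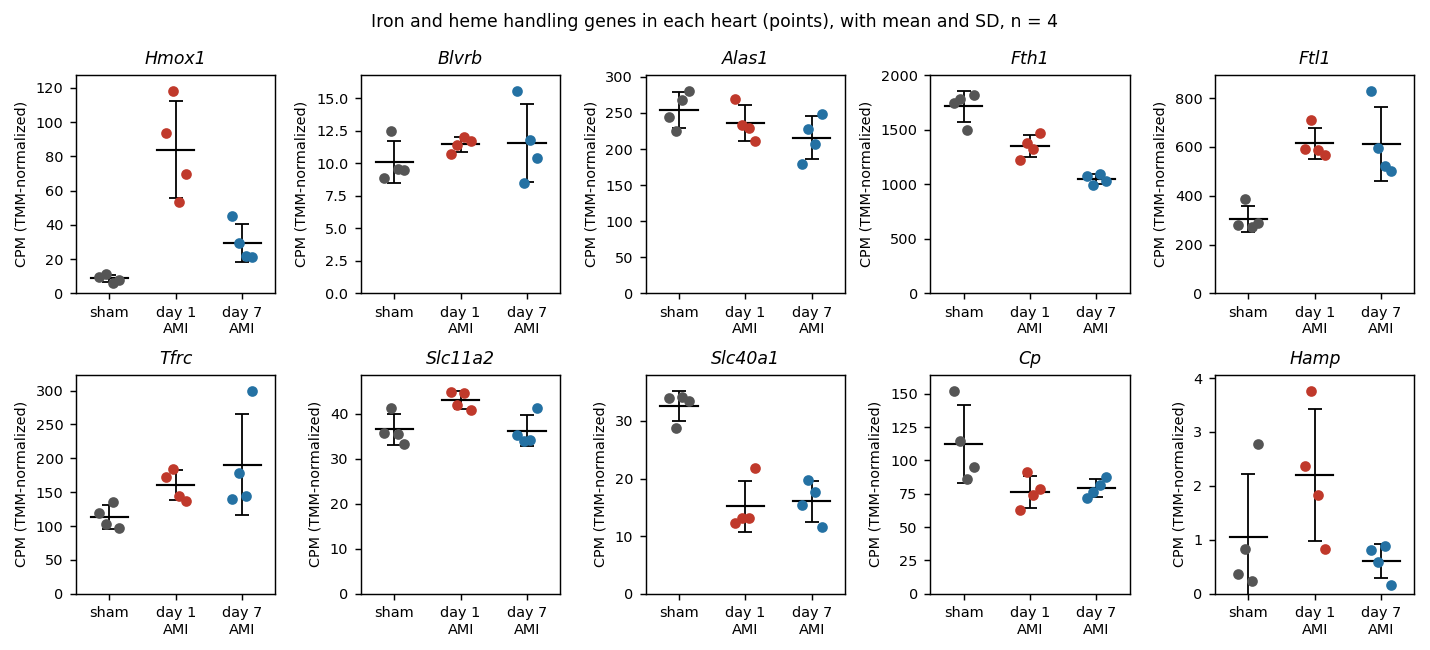
TMM-normalized CPM (linear axes from 0) of the 10 genes in each heart of the 3 groups; points are hearts, and bars are the mean and SD of 4. The 4 day 1 AMI hearts lie above every other heart for *Hmox1*, the 4 sham hearts lie below all infarcted hearts for *Ftl1*, and they lie above all infarcted hearts for *Slc40a1* and *Fth1*.

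*Hmox1*, which encodes the inducible heme oxygenase (chr8:75093621-75100589, plus strand), had the largest change among the 10 genes at day 1. Its level in the sham hearts was 9.55, 11.3, 5.97 and 7.99 CPM. In the day 1 AMI hearts it was 94.0, 118, 53.4 and 69.7 CPM, and in the day 7 AMI hearts 45.2, 29.2, 21.95 and 21.1 CPM. No heart of any group overlapped another group, and day 7 lay between the others. Day 1 AMI was 9.60-fold above sham (log2 FC 3.26 ± 0.299 SE, adjusted p 8.2e-06 in edgeR). Day 7 AMI was 3.36-fold above sham (log2 FC 1.75 ± 0.290, adjusted p 0.000130). From day 1 to day 7 the level fell by 1.51 on the log2 scale (± 0.271, adjusted p 0.000456). The two-sided exact permutation p was 0.0286 for each of the 3 comparisons, which is the smallest that 4 hearts against 4 allow. These calls held in every other fit and with each heart left out.

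Macrophages, the main cells that take up dead red cells and their heme, were followed by 10 marker genes. Their summed level was 320 to 513 CPM in sham, 582 to 821 at day 1 and 892 to 1358 at day 7, so it was highest at day 7 where *Hmox1* was not. Of the 10 markers, 7 rose at day 1 and 10 at day 7 against sham on FDR alone. Of all genes tested, 22.0% and 30.9% rose. The summed level of 8 neutrophil markers was 2.39 to 55.8 CPM in sham, 39.7 to 144 at day 1 and 7.61 to 38.5 at day 7. The part of these cells in the *Hmox1* level was not tested.

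*Blvrb*, which encodes biliverdin reductase B (chr7:27447978-27466144, plus strand), did not pass the edgeR test with TMM in any comparison. It stood at 8.87, 12.4, 9.56 and 9.47 CPM in sham, 10.7, 11.4, 12.0 and 11.7 in day 1 AMI and 15.6, 8.50, 11.8 and 10.4 in day 7 AMI, with overlap between all groups. The log2 FC was 0.18 at day 1 (95% interval -0.17 to 0.53) and 0.20 at day 7 (-0.15 to 0.55) against sham, with adjusted p of 0.393 and 0.315 in edgeR. These intervals leave out a FC of 2. On the TPM scale *Blvrb* rose at day 1, at 0.49 (adjusted p 0.0158 in limma), and at day 7, at 0.86 (adjusted p 0.000209), where the median gene stood at 0.28 and 0.48. On library sizes alone it rose at day 7, at 0.59 (adjusted p 0.0104 in edgeR), and was at 0.44 at day 1 (adjusted p 0.0540).

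*Alas1* encodes the first enzyme of heme synthesis in cells other than red cell precursors (chr9:106233455-106248654, minus strand). The sham hearts held 244, 225, 268 and 281 CPM, the day 1 AMI hearts 269.8, 233, 229.5 and 211, and the day 7 AMI hearts 179.6, 227, 208 and 249. The groups overlapped. Its log2 FC was -0.11 at day 1 (95% interval -0.35 to 0.13) and -0.24 at day 7 (-0.47 to -0.001), with adjusted p of 0.446 and 0.0776 in edgeR. The sign turned to 0.15 and 0.25 on the TPM scale, where the day 7 value passed the FDR as a rise (adjusted p 0.0419 in limma). The median gene stood at 0.28 and 0.48 there. *Alas2*, the form of the enzyme used by red cell precursors, ranged from 11.8 to 171.6 CPM in sham hearts, from 9.87 to 19.3 at day 1 and from 7.15 to 41.8 at day 7. The highest *Alas2* level was in sham heart 2, the heart with the highest erythroid marker level. *Alas2* was lower at day 1 by the test (log2 FC -1.97 ± 0.713, adjusted p 0.0389), the groups overlapped, and 6 of 12 fits with a heart left out did not call it. Without sham heart 2 its change was nearest to 0 among those fits, at -0.71.

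The ferritin chains moved apart. *Fth1*, the heavy chain with the iron-oxidizing site (chr19:9980598-9985098, plus strand), had the highest level of the 10 genes per transcript length in each group, at 3127 ± 290 TPM (SD, n = 4) in sham. *Ftl1*, the light chain, which aids the mineral core (chr7:45457944-45459884, minus strand), came to 482 ± 109 TPM in sham.

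In TMM-normalized CPM, *Fth1* was 1750.1, 1783, 1503 and 1821 in the sham hearts, 1224, 1377, 1328 and 1471 in the day 1 AMI hearts and 1077, 990.2, 1093 and 1034 in the day 7 AMI hearts. Every sham heart lay above every day 1 heart, and every day 1 heart above every day 7 heart. The log2 FC against sham was -0.34 ± 0.0891 at day 1 (adjusted p 0.00696 in edgeR) and -0.71 ± 0.0895 at day 7 (adjusted p 1.2e-05), and -0.36 ± 0.0891 from day 1 to day 7 (adjusted p 0.00412). None reached a FC of 2. The fall depended on the scale, since on TPM the changes were -0.02, -0.16 and -0.14 and did not pass the FDR. Relative to the median gene of the same fit, the changes from sham were -0.33 and -0.74 with TMM and -0.30 and -0.64 with TPM.

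*Ftl1* stood at 281, 385, 272 and 287 CPM in the sham hearts. It stood at 593, 711, 587 and 569 CPM in the day 1 AMI hearts and at 831, 597, 523 and 501 CPM in the day 7 AMI hearts. No sham heart reached the level of any infarcted heart, and the infarcted groups overlapped. The rise was 2.01-fold at day 1 (log2 FC 1.01 ± 0.158, adjusted p 0.000265 in edgeR) and 2.00-fold at day 7 (log2 FC 1.00 ± 0.158, adjusted p 8.6e-05), with an exact permutation p of 0.0286 for each. The difference between day 7 and day 1 was -0.004 (95% interval -0.34 to 0.33, adjusted p 0.987). The FDR was passed in all fits, but the FC lay on the threshold of 2. With a heart left out the log2 FC ran from 0.93 to 1.14 at day 1 and from 0.82 to 1.13 at day 7, and the FC minimum was missed in 4 and 7 of 12 such fits. On the TPM scale the changes were 1.33 and 1.54, where the median gene stood at 0.28 and 0.48.

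Within a heart the ratio of *Ftl1* to *Fth1* does not depend on the scaling of libraries. In TPM it was 0.138, 0.185, 0.155 and 0.135 in sham. The day 1 AMI hearts had 0.414, 0.441, 0.378 and 0.330, and the day 7 AMI hearts 0.661, 0.521, 0.411 and 0.416. Every infarcted heart had a ratio above that of every sham heart. The log2 ratio was higher by 1.36 at day 1 and by 1.70 at day 7 (exact permutation p 0.0286 for each, 4 hearts against 4), and these differences were 1.29 to 1.45 and 1.56 to 1.79 with a heart left out. Day 7 exceeded day 1 by 0.34 with overlap (exact permutation p 0.143). This ratio was chosen after the values were seen.

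**Figure D2:**
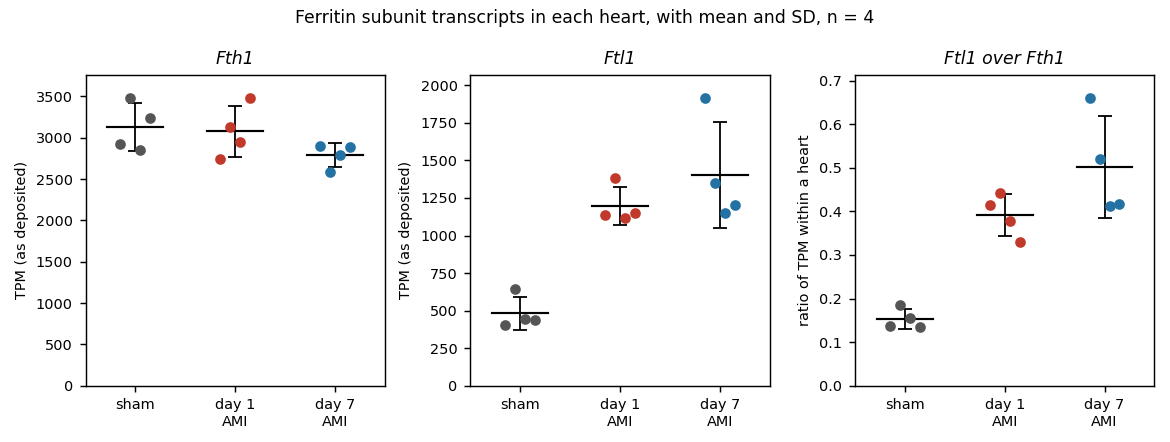
Deposited TPM of *Fth1* and *Ftl1* and their ratio within each heart (linear axes from 0); points are hearts, bars are the mean and SD of 4. *Fth1* overlaps between groups in TPM, and the ratio is 0.135 to 0.185 in sham and 0.330 or more in every infarcted heart.

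Ferritin genes have many processed copies in the mouse genome, and reads from near-identical copies can be assigned to either. Of the 75-base stretches of *Ftl1*, 42.3% were also found in other annotated genes, against 0.882% for *Fth1*. The annotated copies of *Ftl1* with values held 5 to 36 counts per library, or 0.0775% to 0.151% of the *Ftl1* count. The copies of *Fth1* held at most 3 counts. *Gm22133*, on the same strand, overlaps 8.13% of the exon bases of *Ftl1*. *Gm10252*, on the other strand, overlaps 26.5% of them, and the strand that was counted was not stated in the sources used here.

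*Tfrc*, the transferrin receptor by which cells take in transferrin iron (chr16:32608920-32632794, plus strand), stood at 119, 102, 135.6 and 97.1 CPM in sham. In day 1 AMI it stood at 173, 184, 145 and 137.5 CPM and in day 7 AMI at 140.0, 178, 144 and 299 CPM. Every infarcted heart lay above every sham heart, and day 7 heart 4 was the highest of all. The log2 FC was 0.49 ± 0.207 at day 1 (adjusted p 0.0691 in edgeR) and 0.75 ± 0.207 at day 7 (adjusted p 0.00642), so with TMM *Tfrc* passed the FDR at day 7 alone, with a FC under 2. Without day 7 heart 4 the day 7 value was 0.44. On library sizes alone and on the TPM scale *Tfrc* was a DEG at day 7, at 1.16 and 1.12, and it also rose at day 1, at 0.77 (adjusted p 0.0103 in edgeR) and 0.72 (adjusted p 0.0131 in limma). Relative to the median gene of the same fit, its day 7 change was 0.72 with TMM, 0.73 on library sizes alone and 0.64 in TPM. The day 1 change was then 0.51, 0.51 and 0.45. Day 7 heart 4 also had the highest erythroid marker level of the day 7 hearts, at 929 CPM against 234 to 644 in the others. Red cell precursors are rich in transferrin receptor. Sham heart 2 had the highest erythroid marker level of all hearts, at 4296 CPM, and 102 CPM of *Tfrc*. The part of red cell precursors in the *Tfrc* level was not tested.

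*Slc11a2* encodes the divalent metal transporter that moves iron out of endosomes and across the gut wall (chr15:100387898-100425072, minus strand). Sham hearts held 35.8, 41.4, 35.5 and 33.4 CPM, day 1 AMI hearts 44.9, 41.9, 44.6 and 40.8, and day 7 AMI hearts 35.4, 34.0, 34.2 and 41.4. Every day 1 heart except heart 4, which lay below sham heart 2, was above all sham hearts, at a log2 FC of 0.24 ± 0.0876 (adjusted p 0.0428 in edgeR), and lower again at day 7, by -0.25 ± 0.0872 from day 1 (adjusted p 0.0303). The day 7 difference from day 1 was -0.12 on library sizes alone (adjusted p 0.393 in edgeR) and -0.01 on the TPM scale (adjusted p 0.957 in limma), so its FDR pass was lost there. The day 7 change from sham was -0.01 with TMM (95% interval -0.20 to 0.18, adjusted p 0.918 in edgeR). It turned to 0.39 on library sizes alone and 0.47 on the TPM scale, both past the FDR. The median gene stood at 0.43 and 0.48 there. Relative to it *Slc11a2* was at -0.04 and -0.005.

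*Slc40a1* encodes ferroportin, the known exporter of iron from cells (chr1:45908068-45926523, minus strand). Its level was 34.1, 28.8, 34.1 and 33.5 CPM in the sham hearts. It was 12.4, 13.2, 13.2 and 21.8 CPM in the day 1 AMI hearts and 15.4, 19.8, 17.6 and 11.5 CPM in the day 7 AMI hearts. All sham hearts lay above all infarcted hearts, and the infarcted groups overlapped. Sham was 2.15-fold above day 1 AMI (log2 FC -1.10 ± 0.184, adjusted p 0.000399 in edgeR) and 2.03-fold above day 7 AMI (log2 FC -1.02 ± 0.184, adjusted p 0.000263), with an exact permutation p of 0.0286 for each. Day 7 differed from day 1 by 0.08 (95% interval -0.31 to 0.48, adjusted p 0.738). The direction held on the other scales, and the FC of 2 did not: the changes were -0.83 and -0.62 on library sizes alone and -0.70 and -0.46 in TPM. With no filter on low TPM the day 7 change also missed the FDR (adjusted p 0.0538 in limma). Without day 7 heart 4 the day 7 change was -0.89. With all hearts, the changes of *Slc40a1* relative to the median gene of the same fit were -1.09 at day 1 and -1.05 at day 7 with TMM. They were -1.08 and -1.05 on library sizes alone and -0.98 and -0.94 in TPM.

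*Cp* encodes ceruloplasmin, the copper oxidase that loads exported iron onto transferrin (chr3:19957054-20009145, plus strand). It ran at 152, 115, 86.2 and 94.8 CPM in sham, 62.6, 91.4, 73.7 and 78.6 in day 1 AMI and 72.0, 76.5, 81.4 and 87.6 in day 7 AMI. Sham hearts 1, 2 and 4 were above all infarcted hearts, and sham heart 3 lay within the range of both infarcted groups. *Cp* fell at day 1 (log2 FC -0.55 ± 0.156, adjusted p 0.0122 in edgeR) and day 7 (-0.50 ± 0.156, adjusted p 0.0135), with a FC under 2. The exact permutation p was 0.0571 for each. On library sizes alone and on the TPM scale neither passed the FDR, and in TPM the day 7 change turned to 0.07. Relative to the median gene of the same fit, the changes of *Cp* at day 1 and day 7 were -0.54 and -0.52 with TMM. They were -0.52 and -0.51 on library sizes alone and -0.53 and -0.41 in TPM.

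**Figure D3:**
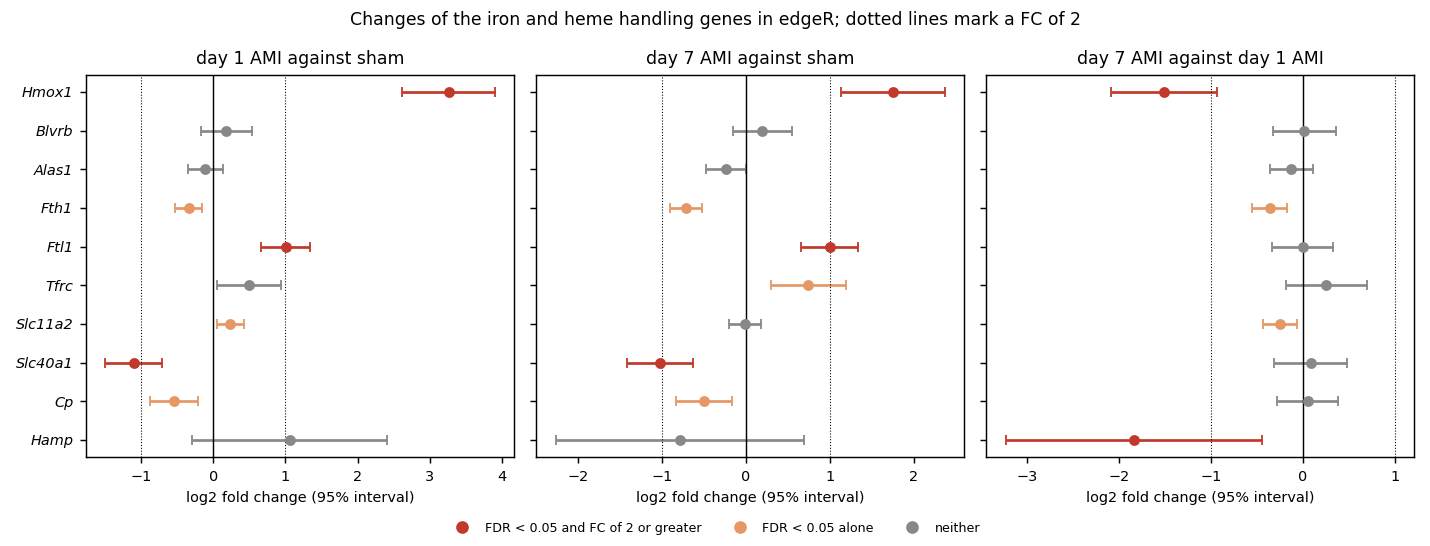
Log2 fold change (first group minus second, points) and 95% interval (bars) of the 10 genes in edgeR for the 3 comparisons; dotted lines mark a FC of 2, and color gives the test result. Of the DEGs, the intervals of *Hmox1* against sham lie wholly beyond a FC of 2, and those of *Ftl1* and *Slc40a1* cross it.

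*Hamp*, which encodes hepcidin, the hormone made mainly in liver (chr7:30942368-30944032, minus strand), was the least expressed of the 10 genes in CPM, with 5 to 126 counts per library. The sham hearts held 0.37, 0.82, 0.24 and 2.77 CPM. The day 1 AMI hearts held 2.37, 3.76, 1.83 and 0.82 CPM, and the day 7 AMI hearts 0.80, 0.58, 0.89 and 0.17 CPM. Sham heart 4 lay within the range of day 1 AMI, and day 1 heart 4 within that of sham and day 7. Day 7 was below day 1 (log2 FC -1.84 ± 0.650, adjusted p 0.0308 in edgeR; exact permutation p 0.0571). The call was lost without day 1 heart 1, day 1 heart 2, day 7 heart 2 or day 7 heart 4, at -1.81, -1.45, -1.82 and -1.53, and on the TPM scale, at -1.52 (adjusted p 0.0540 in limma). Day 1 against sham was 1.06 ± 0.631 (adjusted p 0.195), and without sham heart 4 it was 2.16 (adjusted p 0.0136). On the TPM scale this comparison passed, at 1.59 (adjusted p 0.0423 in limma), where the median gene stood at 0.28. Day 7 against sham was -0.79 (95% interval -2.27 to 0.69, adjusted p 0.343).

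Markers of atrial muscle and of liver were set beside *Hamp*. The atrial markers *Myl7*, *Myl4*, *Sln* and *Bmp10* summed to 29.3 to 320 CPM in sham, 82.6 to 144 at day 1 and 41.5 to 112 at day 7. Sham heart 4, the sham heart with the most *Hamp*, had the highest sum of the 12 hearts. With *Nppa*, which ventricles also express under strain, the sums were 95.4 to 875 CPM in sham, 485 to 1266 at day 1 and 1218 to 1862 at day 7. The 6 hepatocyte markers summed to 1.41 to 3.45 CPM across all hearts, and 2 of the 6 were at 0 counts in each group. *Hamp2*, the paralog of *Hamp*, held 0 to 2 counts per library. The part of atrial tissue in the *Hamp* values was not tested.

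**Figure D4:**
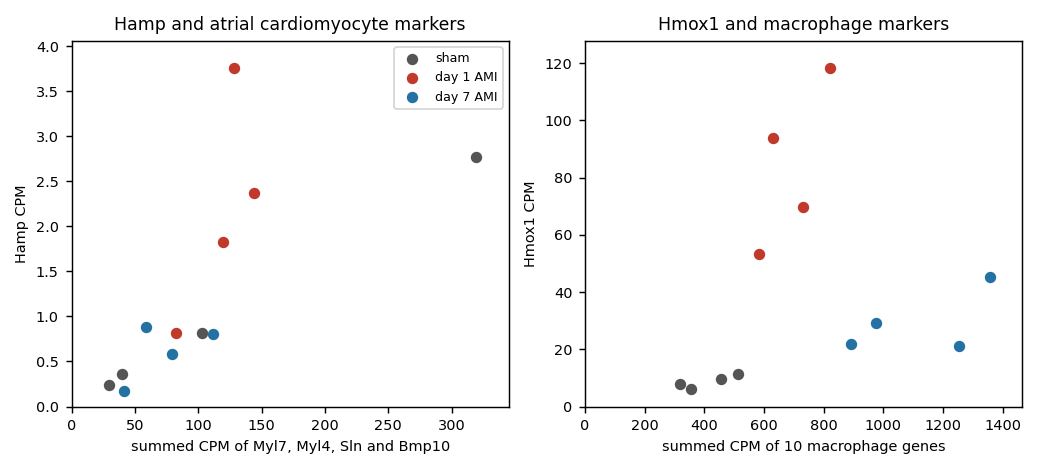
Left, *Hamp* CPM against the summed CPM of 4 atrial muscle markers; right, *Hmox1* CPM against the summed CPM of 10 macrophage markers (all linear axes from 0; each point is a heart, color gives the group). Sham heart 4 lies apart on the left at 320 CPM of atrial markers, and on the right the day 7 AMI hearts have the most macrophage marker RNA but less *Hmox1* than every day 1 AMI heart.

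Of the other cell markers, 8 of 9 cardiomyocyte genes fell at day 1 and 8 of 9 at day 7 against sham on FDR alone with TMM. Of all genes tested, 19.9% and 28.4% fell. In TPM, sham and day 1 hearts overlapped for *Tnnt2*, *Actc1*, *Myl2*, *Myl3*, *Ryr2*, *Pln* and *Ttn* (for *Ttn* 93.1 to 119.6 and 86.3 to 100.6). They did not for *Myh6* (10977.8 to 13010.5 and 6696.4 to 9626) and *Tnni3* (10908.3 to 13556.1 and 7887.93 to 10205.4). Endothelial markers summed to 746 to 844 CPM in sham, 617 to 664 at day 1 and 1021 to 1145 at day 7. Fibroblast markers summed to 1007 to 1252, 1598 to 2232 and 6634 to 14145 CPM. The part of these cell types in the levels of the 10 genes was not tested.

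A further 61 genes of iron and heme metabolism were followed as a list, and 55 of them had enough counts to be tested. At day 1, 4 were DEGs with a higher level and 1 with a lower, or 9.09% of those tested beside 10.8% of all genes. At day 7 against sham, 6 were higher and 5 lower, or 20% beside 21.2%, and between day 7 and day 1, 4 were higher and 1 lower, or 9.09% beside 11.2%. These shares were near those of all genes. The median log2 FC was -0.25, -0.37 and -0.20, beside -0.01, 0.03 and 0.02 for all genes tested. On FDR alone, 9 rose and 22 fell at day 1, where 22.0% of all genes rose and 19.9% fell. At day 7 against sham 10 rose and 30 fell, where 30.9% and 28.4% of all genes did, and from day 1 to day 7 9 rose and 20 fell, where 24.2% and 22.8% did. This balance depended on the scale, since on library sizes alone the counts were 16 higher and 8 lower at day 1 and 21 higher and 15 lower at day 7, and in TPM, with 53 tested, 16 and 5 and then 23 and 10. On library sizes alone the median log2 FC of the list was 0.02 at day 1 and 0.03 at day 7, and the median gene stood at 0.26 and 0.43. In TPM the list was at 0.07 and 0.19 and the median gene at 0.28 and 0.48.

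Of 8 genes of heme synthesis, 6 fell at day 1, and 6 fell and 1 rose at day 7, on FDR alone with TMM. Among all genes tested, 19.9% fell and 22.0% rose at day 1, and 28.4% fell and 30.9% rose at day 7. Such shares were taken with TMM alone. At day 1 the heme synthesis counts became 2 lower and 1 higher both on library sizes alone and in TPM. The median log2 FC of the 8 at day 1 was -0.49 with TMM, -0.22 on library sizes alone and -0.16 in TPM. The median gene stood at -0.01, 0.26 and 0.28 in those fits. *Cpox*, a late enzyme of the pathway that yields protoporphyrinogen, was at 55.8 to 77.3 CPM in sham, 42.5 to 56.9 at day 1 and 29.0 to 38.4 at day 7, a log2 FC of -1.04 ± 0.130 at day 7 against sham (adjusted p 1.1e-05 in edgeR). At day 7, 5 of the heme synthesis genes fell and 1 rose on library sizes alone, and 3 fell and 1 rose in TPM. Their median log2 FC at day 7 was -0.77 with TMM, -0.37 on library sizes alone and -0.21 in TPM, where the median gene stood at 0.03, 0.43 and 0.48. Of 14 genes for mitochondrial iron and iron-sulfur clusters, 7 fell and 1 rose at day 1, and 13 fell at day 7 against sham, with TMM. Beside them, 19.9% of all genes fell and 22.0% rose at day 1, and 28.4% fell at day 7. At day 1 the counts were 3 lower and 3 higher on library sizes alone and 2 lower and 2 higher in TPM. The median log2 FC of the 14 at day 1 was -0.28 with TMM, -0.007 on library sizes alone and 0.01 in TPM. The median gene again stood at -0.01, 0.26 and 0.28. *Nfs1*, the desulfurase that supplies sulfur for the clusters, was at 108 to 124 CPM in sham, 76.0 to 99.4 at day 1 and 52.6 to 64.9 at day 7 (log2 FC -1.03 ± 0.0997 at day 7 against sham, adjusted p 1.2e-06). On library sizes alone 8 of the 14 fell and 1 rose at day 7, and on the TPM scale 6 fell and 1 rose. The median log2 FC of the 14 at day 7 was -0.77 with TMM, -0.37 on library sizes alone and -0.15 in TPM. The median gene stood at 0.03, 0.43 and 0.48 in those fits. *Cpox* missed the FC of 2 in 4 and *Nfs1* in 2 of 12 fits that each left out a heart.

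Among genes for heme transport and scavenging, *Hp*, which encodes haptoglobin, the binder of free hemoglobin, was at 0.92 to 7.15 CPM in sham, 8.34 to 25.8 at day 1 and 3.76 to 23.7 at day 7. The day 1 hearts lay above all sham hearts (log2 FC 2.27 ± 0.597, adjusted p 0.00763 in edgeR), and the day 7 hearts overlapped them (1.67 ± 0.597, adjusted p 0.0262). With a heart left out, 4 of 12 fits did not call *Hp* at day 7, with a change as low as 0.92. *Lrp1*, a receptor for heme bound to hemopexin among many other ligands, was 181 to 283 CPM in sham and 369 to 613 in day 7 AMI (1.03 ± 0.170, adjusted p 0.000123). *Flvcr2*, a carrier first described for heme, was 3.61 to 10.2 CPM in sham and 2.72 to 3.54 in day 7 AMI (-1.14 ± 0.241, adjusted p 0.000953).

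In iron uptake, *Lcn2*, which encodes lipocalin 2, a binder of bacterial iron carriers stored in neutrophil granules, was at 2.72 to 15.1 CPM in sham, 102 to 161 at day 1 and 1.27 to 6.77 at day 7. It rose by 3.89 ± 0.460 on the log2 scale at day 1 (adjusted p 4.4e-05 in edgeR) and was lower at day 7 than at day 1 by -5.42 ± 0.503 (adjusted p 2.2e-06). At day 7 it was also below sham, with overlap, by -1.53 ± 0.487 (adjusted p 0.0144). Its time course had the order of the neutrophil markers at day 1 and day 7, whose part in it was not tested. *Steap2*, a metalloreductase, was at 0.25 to 1.55 CPM in sham, 4.12 to 6.21 at day 1 and 3.62 to 7.89 at day 7 (2.48 ± 0.370 and 2.64 ± 0.370, adjusted p 0.000181 and 3.0e-05). *Tfr2*, the second transferrin receptor, had at most 3 counts in any sham or day 1 AMI library and 20 to 35 counts in the day 7 AMI libraries. *Slc22a17*, a receptor for lipocalin 2, was at 4.40 to 4.91 CPM in day 1 AMI and 7.84 to 12.2 in day 7 AMI (1.13 ± 0.152, adjusted p 4.7e-05). The remaining uptake gene called between day 7 and day 1, *Tf*, which encodes transferrin and was named after its values were seen, was at 24.3 to 40.4 and 49.1 to 71.0 CPM (1.01 ± 0.163, adjusted p 0.000202).

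*Heph*, which encodes hephaestin, the membrane-bound relative of ceruloplasmin, fell at day 1 and rose at day 7 against sham on FDR alone, with changes of -0.83 and 0.95. On library sizes alone the changes were -0.56 and 1.35, both past the FDR. In limma on log2(TPM + 1) the day 1 change was -0.22 and did not pass the FDR, and the day 7 change was 0.87 and did. On log2(TPM + 0.1) they were -0.47 and 1.40, with the same FDR results. Mean TPM of *Heph* was 0.82 in sham and 0.565 at day 1, under the pseudocount of 1. In CPM *Heph* was at 2.87 to 3.44 in sham, 1.44 to 2.11 at day 1 and 5.98 to 6.53 at day 7. The groups did not overlap, and day 7 exceeded day 1 by 1.79 ± 0.148 on the log2 scale (adjusted p 8.0e-07 in edgeR). Of the genes that control hepcidin, *Hjv*, the coreceptor hemojuvelin, which striated muscle expresses, was at 281 to 323 CPM in sham and 141 to 148 in day 7 AMI (-1.05 ± 0.121, adjusted p 5.4e-06). *Bmp2*, a ligand of the same receptor complex, was at 1.16 to 1.64 CPM in sham, 2.18 to 5.58 at day 1 and 1.84 to 3.27 at day 7 (1.36 ± 0.281 and 1.01 ± 0.283, adjusted p 0.00171 and 0.0070). On the TPM scale and on library sizes alone none of the 5 genes called lower at day 7 against sham, *Hjv*, *Cpox*, *Nfs1*, *Flvcr2* and *Lcn2*, was a DEG. In those fits 113 of 13716 and 318 of 15306 genes were DEGs with a lower level. With a heart left out, *Lrp1* missed the call at day 7 in 3 and *Bmp2* in 4 of 12 fits, and *Tf* missed it in 4. Of 5 genes for iron sensing and transcription, 2 fell at day 7 against sham on FDR alone with TMM, where 28.4% of all genes fell. The counts were 3 higher and none lower on library sizes alone and 4 higher and none lower in TPM. The median log2 FC of the 5 was -0.02 with TMM, 0.38 on library sizes alone and 0.46 in TPM. The median gene stood at 0.03, 0.43 and 0.48 in those fits.

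**Figure D5:**
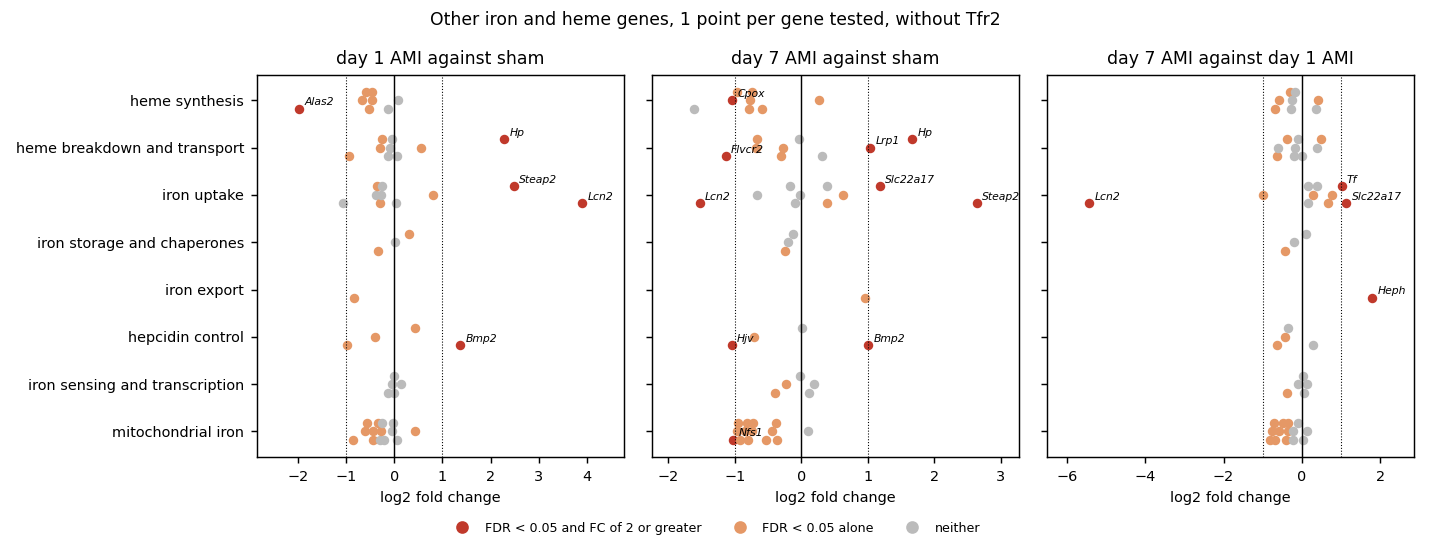
Log2 fold change (linear axis) of the other iron and heme genes tested, by role, in the 3 comparisons; each point is a gene, color gives the edgeR result, and dotted lines mark a FC of 2. *Tfr2* is left out because its sham and day 1 AMI libraries held at most 3 counts. At day 7 against sham, 13 of 14 mitochondrial iron genes lie below 0 past the FDR with TMM, where 28.4% of all genes do, and 6 do in TPM.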

How the data were processed

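Per the labels and the study's methods, reads were demultiplexed with CASAVA 1.8, aligned with STAR 2.4.0j to the mouse genome (mm10) and quantified with RSEM. The authors deposited raw counts per gene, whole numbers without normalization, and TPM per gene. The tool behind the counts, the strand and the treatment of reads with several matches were not given in the sources used here.

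Counts were tested with edgeR 4.0.16 in R 4.3.3 (TMM, filterByExpr with a minimum count of 10, quasi-likelihood) on the 12 libraries. DEGs needed both an FDR below 0.05 over 15306 genes and at least a 2-fold change. Single values were compared by two-sided exact permutation of log2 CPM (prior count 2). SE are those implied by the F statistic. Alternatives were RLE factors, library sizes alone, no filter, DESeq2 1.42.0, only the groups compared, a replicate block, no minimum FC, limma 3.58.1 on log2 TPM (pseudocounts 1 and 0.1, at least 1 TPM in 4 libraries), ferritin copies summed, and each heart left out. Ratios of chains and summing every copy were added after the values were seen. The code was tested on simulated data in which 200 genes changed.

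The 10 genes and all lists were chosen with earlier results of these data known. Other genes of the list are named if among the 3 DEGs with the largest change of their role in a comparison, with *Alas2* and *Hamp2*. *Ahsp*, listed among the erythroid markers, had no value under that symbol. Replicate numbers marked different mice, and no library repeated another (chi-square over its degrees of freedom at least 9.41 within groups).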

Additional observations from a re-analysis of the deposited data

Results flagged for a closer look

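In 30 sets of 4 hearts, 10 genes in 3 groups, 4 sets held a heart far from its group, where chance gives about 1 in 20. Sham heart 2 had the highest sham *Ftl1*, at 385.2 CPM where the others had 271.7 to 287, and the lowest sham *Slc40a1*, at 28.79 CPM where the others had 33.47 to 34.15. The same heart had the highest erythroid, macrophage and neutrophil marker levels of the sham hearts. Day 1 heart 2 had 710.9 CPM of *Ftl1* where the others had 568.6 to 592.9, and the highest macrophage and neutrophil marker levels of its group, 821 CPM (582 to 730.5 in the others) and 144 CPM (39.7 to 72.7 in the others). Day 1 heart 4 had 21.82 CPM of *Slc40a1* where the others had 12.35 to 13.22. Without sham heart 2 the day 1 changes from sham were 1.14 for *Ftl1* and -1.16 for *Slc40a1* on the log2 scale. The part of the marker levels in these values was not tested.

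The change from sham differed between the days past both the FDR and a FC of 2 for 2 genes by edgeR's test of that difference, with log2 differences of -1.51 for *Hmox1* and -1.84 for *Hamp*. All 4 day 7 hearts were below all 4 day 1 hearts for *Hmox1*, and the groups overlapped for *Hamp*. *Fth1* and *Slc11a2* passed the FDR of the same test with smaller differences, -0.36 and -0.25.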

How the results depend on the processing

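Of the single-gene values and ferritin chain ratios under other settings, 616 kept their direction and side of the threshold, 33 lost the call, 7 gained it and 43 turned sign. The ratios have no call threshold and are counted as kept, since each moved by less than the SD of the hearts. With no minimum FC, 6, 6 and 4 of the 10 genes and 31, 40 and 29 of the list were called. Against day 1, the 2 calls at day 7 became 1, with *Hamp* lost, in limma at each setting, and 1 to 2 with a heart left out. The replicate numbers did not pair the hearts, since same-numbered hearts correlated at -0.24 to 0.23 and over 0.1 in 4 of 12 pairs; with the replicate block the 2 calls became 1. The block changed *Hamp* to -1.78 (adjusted p 0.0628 in edgeR) and *Ftl1* at day 7 to 0.995, under a FC of 2. The list at day 7 against sham had 5, 7 and 5 calls in limma, none lower, and 8 against day 1 in DESeq2 on only those groups. The cause was not tested.

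Of the values that turned sign, the change of *Cp* at day 7 against sham had passed the FDR in edgeR, and the others had not. *Alas1* turned to 0.16, 0.16 and 0.0025 on library sizes alone in the 3 comparisons and to 0.15, 0.25 and 0.10 in limma at each setting. *Slc11a2* at day 7 against sham turned to 0.39 on library sizes alone and 0.47, 0.50 and 0.47 in limma. In limma there, *Cp* turned to 0.070, 0.073 and 0.070, and *Hamp* to 0.067, 0.11 and 0.067. Between day 7 and day 1, *Ftl1* turned to 0.12 on library sizes alone and 0.21 in limma, and *Blvrb* to -0.0031 with RLE factors and -0.0076 and -0.0103 in DESeq2. With a heart left out, the ranges were -0.081 to 0.051 for *Slc11a2* and -1.11 to 0.31 for *Hamp* at day 7 against sham. Between day 7 and day 1 they were -0.037 to 0.14 for *Cp*, -0.16 to 0.14 for *Blvrb*, -0.19 to 0.081 for *Ftl1*, -0.052 to 0.37 for *Tfrc* and -0.033 to 0.31 for *Slc40a1*. For *Hamp*, with 5 to 126 counts per library, counting error adds to the spread between hearts.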
